A study of Mus musculus with 24 samples.

Results

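Luminal cells of the progenitor type were set against luminal cells of the hormone-sensing type, both from the ducts of the pubertal mouse mammary gland. The comparison used 8 of the 24 RNA-seq libraries of the series, chosen by tissue and gate from the labels, in 4 groups of 2; the other 16 libraries came from basal cells or from terminal end buds (TEBs), where ducts elongate. All cells were sorted as lineage-negative and EpCAM+ with low CD29 (integrin beta 1), which is the luminal gate, from microdissected ducts of mice described only as pubertal. The progenitor gates were GFP+ cells of mice with an Elf5-rtTA-IRES-GFP allele (the Elf5 model) and YFP- cells of mice with PR-cre and Rosa26-LSL-eYFP (the PRcr model). The hormone-sensing gates were GFP- cells of the Elf5 model and YFP+ cells of the PRcr model. GFP reports the Elf5 allele at the time of sorting, whereas YFP remains on in any cell whose lineage has once had PR-cre activity, so the YFP- gate holds every luminal cell without that history. The labels name the gates by reporter only, and the words progenitor and hormone-sensing rest on the marker genes given below. Whether both libraries of a group stem from different animals is not stated. The p-values therefore reflect variation among these libraries, possibly technical, and gates of 1 model may share a preparation.

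The luminal layer of the mammary duct holds hormone-sensing cells and progenitor cells side by side. Hormone-sensing cells carry the estrogen and progesterone receptors and pass ovarian hormone signals to their neighbours through secreted factors such as amphiregulin, WNT4 and RANKL. Luminal progenitors have little of those receptors, express the receptor tyrosine kinase KIT and the ETS factor ELF5, and give rise to the alveolar cells that make milk in pregnancy.

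The genes behind both reporters differed between the gates in each model. Elf5, the alveolar ETS factor whose allele carries GFP (chr2:103412098-103450989, mm10), had 1489 and 1620 CPM in GFP+ and 675 and 673 in YFP- libraries, against 36.7 and 66.6 in GFP- and 75.1 and 84.9 in YFP+ libraries. CPM are counts per 1e6 of a library's total after scaling by its TMM factor (0.883 to 1.053), which sets libraries with different make-up on a common scale; the floor is given before this scaling. Pgr, the progesterone receptor (chr9:8898900-8968611), had 37.1 and 71.7 CPM in GFP+ and 19.5 and 12.8 in YFP- libraries, against 619 and 387 in GFP- and 459 and 459 in YFP+ libraries. Neither gene overlapped between the 4 and 4 libraries, and each also separated the gates of the model whose reporter does not use it. The log2 fold change, taken throughout as progenitor minus hormone-sensing gates, was 3.99 ± 0.45 (SE) for Elf5, with an adjusted p of 0.000599 in edgeR's quasi-likelihood test, and -4.01 ± 0.46 for Pgr, with an adjusted p of 0.00073. Itgb1 and Epcam, which encode the surface proteins of the luminal gate itself, were not called, with log2 differences of 0.14 ± 0.08 (adjusted p 0.227) and 0.33 ± 0.12 (adjusted p 0.0577). Epcam did not overlap between the 4 and 4 libraries, and was called with DESeq2 (0.31, adjusted p 0.0259), with all 24 libraries in edgeR's fit (0.33, adjusted p 0.00407) and without GFP- replicate 1 (0.42, adjusted p 0.0176). In bulk libraries, fewer cells of a type and less RNA per cell cannot be told apart.

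The summed level of the luminal progenitor marker list (15 genes) was 14409, 13388, 13770 and 13725 CPM in the GFP+ and YFP- libraries, against 614, 720, 1774 and 1507 CPM in the GFP- and YFP+ libraries. That of the hormone-sensing marker list (14 genes) was 843, 1491, 536 and 456 CPM in the GFP+ and YFP- libraries, against 11156, 7860, 11531 and 11227 CPM in the GFP- and YFP+ libraries. Gates and marker sums therefore pointed the same way in all 8 libraries. Elf5 is on the progenitor list and Pgr on the hormone-sensing list, so sorting on their reporters fixed part of this. Each gate also held the other type's markers at a lower level. GFP- duct replicate 2 stood apart: its basal marker list summed to 3477 CPM, against 31.9 to 145 CPM in the other 7 libraries, and its keratinocyte list to 2458 CPM, against 29.9 to 129 CPM. It also stood apart on principal components 2 and 3, with scores of 93.1 and 82.1. Component 1, with 53% of the variance, separated the gates, at -79.9 to -102.1 in the progenitor-gate and 73.6 to 119 in the hormone-sensing-gate libraries. Total counts ran from 31.3 to 52.5 in units of 1e6, with 16232 to 18002 genes detected, so that 3 counts correspond to 0.0571 to 0.096 CPM; this floor covers counting error only. Results that rest on GFP- replicate 2 are given with and without it.

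**Figure D1:**
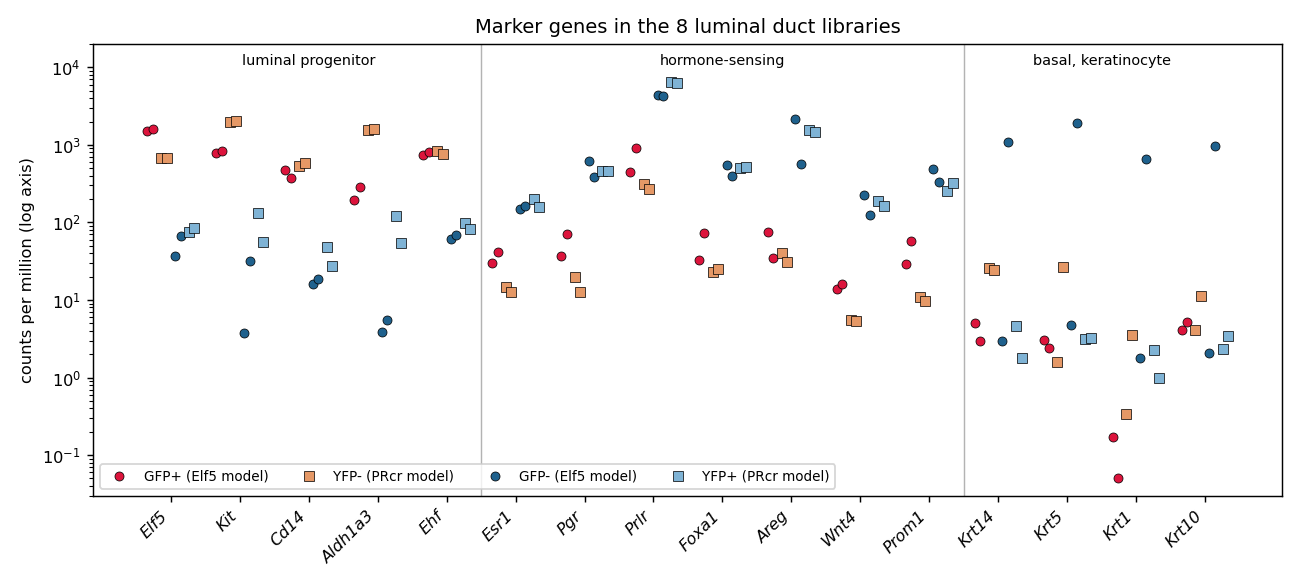
CPM (log axis) of luminal, basal and keratinocyte marker genes in each of the 8 luminal duct libraries, 1 point per library, with progenitor gates left of hormone-sensing gates within a gene and a count of 0 drawn at the foot of the axis. The luminal markers split the 4 and 4 libraries, whereas Krt14, Krt5, Krt1 and Krt10 stand at 1089, 1916, 654 and 967 CPM in GFP- replicate 2 and at 26.3 CPM or less in the other 7.

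The ducts held a wide and nearly balanced difference between the luminal types. Of 15979 genes tested, 6409 were called at an adjusted p under 0.05 in the comparison blocked by model, or 40.1% of them: 3257 were higher (20.4%) and 3152 lower (19.7%) in the progenitor gates. More than 8-fold differences were called for 673 genes higher and 584 lower, while the median absolute log2 fold change over all genes tested was 0.54. The Elf5 model alone gave 4459 calls (27.9%) and the PRcr model alone 5201 (32.5%). Genes called in the blocked comparison and also called the same way in each model, termed agreeing below, numbered 3206 (20.1%), with 1661 higher (10.4%) and 1545 lower (9.67%). They were 71.9% of the Elf5-model calls and 61.6% of the PRcr-model calls. The 4 and 4 libraries did not overlap for 5955 of all genes tested (37.3%), and for 1596 of the agreeing higher and 1493 of the agreeing lower genes. Agreeing genes were called on these same libraries, and this choice favours a lack of overlap among them.

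Leaving out GFP- replicate 2 left 3205 of the 3206 agreeing genes called in the same direction in the blocked comparison. Computed anew without it, 4239 genes agreed, 3019 of them shared with the full set. Leaving out 1 library of another group left that group with 1 library and gave fewer agreeing genes: 2045 without GFP+ replicate 1, 2104 without GFP+ replicate 2, 2003 and 1986 without YFP- replicate 1 and 2, and 2128 and 1961 without YFP+ replicate 1 and 2. The Elf5 model then gave 2502 and 2649 calls without GFP+ replicate 1 and 2, and the PRcr model 2751, 2668, 3049 and 2622 without YFP- replicate 1, YFP- replicate 2, YFP+ replicate 1 and YFP+ replicate 2. Leaving out GFP- replicate 1, which keeps only replicate 2 in that group, did not lower the number of agreeing genes either. In all these fits, those of the GFP- group included, the lone library is assumed to vary like the other groups.

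**Figure D2:**
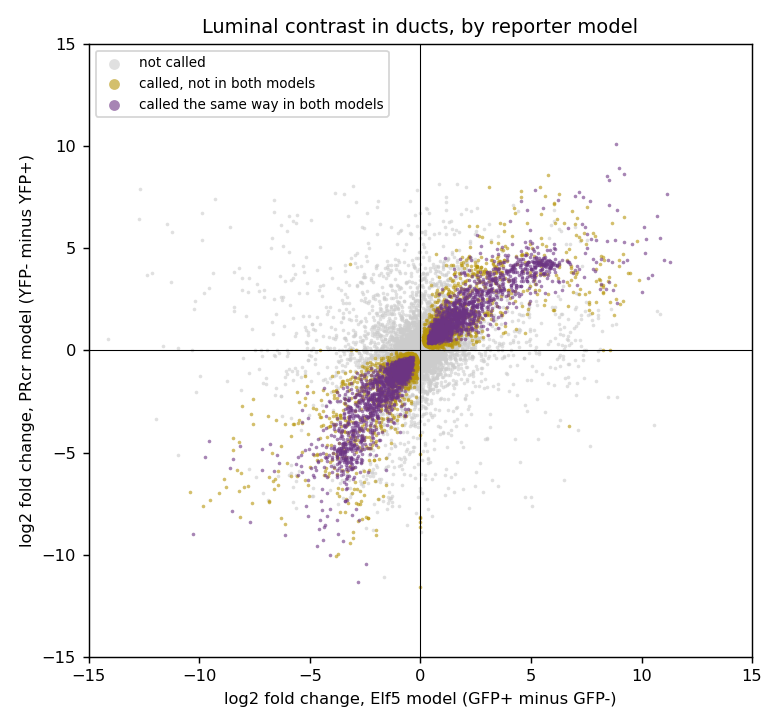
Log2 fold change of each gene tested in the Elf5 model (GFP+ minus GFP-, x axis) and in the PRcr model (YFP- minus YFP+, y axis), 1 point per gene, coloured by whether it was not called, called in the blocked comparison, or called the same way in both models. Over the genes tested the values correlated at r = 0.577, a description across genes, which are not independent replicates; the 3206 agreeing genes lie at the upper right and lower left.

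The largest agreeing increases included genes of secreted milk proteins. Ltf, which encodes the iron-binding milk protein lactoferrin (chr9:111019292-111042766), had 3719 and 3785 CPM in GFP+ and 2999 and 3404 in YFP- libraries, against 19.9 and 50.9 in GFP- and 198 and 115 in YFP+ libraries. Trf, the iron carrier transferrin, had 43898 and 22888 CPM in GFP+ and 2320 and 2425 in YFP- libraries, against 296 and 810 in GFP- and 139 and 103 in YFP+ libraries. Btn1a1, butyrophilin of the milk fat globule, had 4068 and 3371 CPM in GFP+ and 1027 and 1045 in YFP- libraries, against 27.9 and 104 in GFP- and 65.7 and 32 in YFP+ libraries. All 3 were higher in each progenitor-gate library than in any hormone-sensing-gate library, which the choice of genes without overlap fixes. All were also higher in GFP+ than in YFP- libraries. Their log2 fold changes were 5.54 ± 0.68 (adjusted p 0.000978), 5.10 ± 0.55 (adjusted p 0.000428) and 5.11 ± 0.59 (adjusted p 0.00076). Igfbp5, an IGF-binding protein, had 16216 and 17960 CPM in GFP+ and 14637 and 16498 in YFP- libraries, against 121 and 670 in GFP- and 959 and 489 in YFP+ libraries, a log2 fold change of 4.93 ± 0.62 (adjusted p 0.000944). Trf and Igfbp5 had the highest mean CPM of all genes over the progenitor-gate libraries, a share of counts that is not corrected for gene length. For Trf this rested on the GFP+ libraries: in the YFP- libraries Fos, for example, lay above it at 7583 and 7200 CPM.

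Of the 15 largest agreeing increases without overlap and with a mean of 10 CPM or more, the other 12 included receptors, enzymes and signalling proteins. Car2, carbonic anhydrase 2, had 108 and 54.8 CPM in GFP+ and 22.5 and 18.6 in YFP- libraries, against 0.928 and 1.18 in GFP- and 1.54 and 0.437 in YFP+ libraries. Itprid1, which has an IP3 receptor-interacting domain, had 253 to 549 CPM in the progenitor gates, against 3.57 to 16.7 in the hormone-sensing gates. Apod, the lipid-binding apolipoprotein D, had 328 to 1818 CPM in the progenitor gates, against 9.71 to 30 in the hormone-sensing gates. Log2 fold changes were 5.32 ± 0.61 (adjusted p 0.000729), 5.28 ± 0.60 (adjusted p 0.000703) and 5.26 ± 0.71 (adjusted p 0.00145). Erbb4, a neuregulin receptor with a known role in alveolar development, and Wnt5b, a Wnt ligand, followed at 5.29 ± 0.74 (adjusted p 0.00154) and 5.12 ± 0.62 (adjusted p 0.000899). The remaining 7 were Nav3, Pgm5, Fyb2, Ntng1, E030013I19Rik, Timd2 and St6galnac4, with log2 fold changes from 5.14 to 5.41.

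The largest agreeing decreases included Sprr1a, Krt6a, Upk3a and Areg. Sprr1a, a cornified-envelope protein, had 2.83 and 1.61 CPM in GFP+ and 0.527 and 0.441 in YFP- libraries, against 89.7 and 94.9 in GFP- and 24.8 and 35.7 in YFP+ libraries. Krt6a, a keratin of stratified and stressed epithelium, had 5.82 and 5.42 CPM in GFP+ and 6.59 and 3.62 in YFP- libraries, against 190 and 284 in GFP- and 301 and 215 in YFP+ libraries. Upk3a, a urothelial plaque protein, had 3.02 and 4.03 CPM in GFP+ and 3.53 and 3.97 in YFP- libraries, against 169 and 92 in GFP- and 119 and 102 in YFP+ libraries. None of the 3 overlapped between the gates, which the choice of genes without overlap fixes. In each, a hormone-sensing-gate library other than GFP- replicate 2 reached or came close to the value of that replicate. Their log2 fold changes were -5.62 ± 0.26 (adjusted p 1.87e-05), -5.52 ± 0.26 (adjusted p 2.11e-05) and -5.05 ± 0.24 (adjusted p 1.89e-05). Krt6b, at -5.61 ± 0.42, is a near-identical paralog of Krt6a, and reads could be split between them. Areg, the EGF-family ligand amphiregulin that estrogen induces in hormone-sensing cells (chr5:91139599-91148432), had 75.4 and 34.5 CPM in GFP+ and 40 and 30.8 in YFP- libraries, against 2182 and 563 in GFP- and 1563 and 1467 in YFP+ libraries. Its log2 fold change was -5.03 ± 0.54 (adjusted p 0.000556). Its lowest hormone-sensing value, in GFP- replicate 2, was above every progenitor-gate value, which the choice of genes also fixes. The other 10 were Aldh3a1, Clca1, Itih2, Dscam, Ffar4, Muc13, Cers6, Hc, Cyp3a57 and Rasgrf1, with log2 fold changes from -5.51 to -4.74; Cyp3a57 belongs to a multigene family whose reads may be shared.

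Among the genes with the highest mean CPM in the hormone-sensing gates, Slc12a2, a sodium-potassium-chloride cotransporter, had 469 and 745 CPM in GFP+ and 472 and 433 in YFP- libraries, against 4630 and 3285 in GFP- and 9279 and 11266 in YFP+ libraries. Cd164, a sialomucin, had 735 and 1164 CPM in GFP+ and 590 and 605 in YFP- libraries, against 5391 and 4878 in GFP- and 5797 and 6002 in YFP+ libraries. Both separated the gates without overlap, with log2 differences of -3.60 ± 0.43 (adjusted p 0.000602) and -2.87 ± 0.23 (adjusted p 7.49e-05). The mitochondrially encoded mt-Cytb, a subunit of complex III, was lower in the progenitor gates at -0.97 ± 0.16 (adjusted p 0.0019), and the translation factor Eef1a1 was not called at 0.16 ± 0.12 (adjusted p 0.323). The complex IV gene mt-Co1 was called at -0.49 ± 0.15 (adjusted p 0.0293) but not without GFP- replicate 1, GFP+ replicate 2, YFP- replicate 1, YFP- replicate 2 or YFP+ replicate 1, at -0.44, -0.42, -0.53, -0.51 and -0.49.

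The difference was wider in the Elf5 model for most of the large increases and wider in the PRcr model for most of the large decreases. Among agreeing genes past 8-fold, 323 of 417 increases were wider in the Elf5 model, with median log2 fold changes of 4.84 in the Elf5 model and 3.98 in the PRcr model. Conversely, 308 of 364 decreases were wider in the PRcr model, with medians of -3.38 in the Elf5 model and -4.81 in the PRcr model. Of these genes, 6 of the 417 increases and 19 of the 364 decreases had a called difference between models, against 1.12% of all genes tested. For most of them the wider side was thus not a called difference, and such calls rested on single libraries, as given below. The summed marker levels given above moved with the wider side: the progenitor markers in the hormone-sensing gates were lower in GFP- than in YFP+ libraries, and the hormone-sensing markers in the progenitor gates were higher in GFP+ than in YFP- libraries. Their part in the result was not tested.

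**Figure D3:**
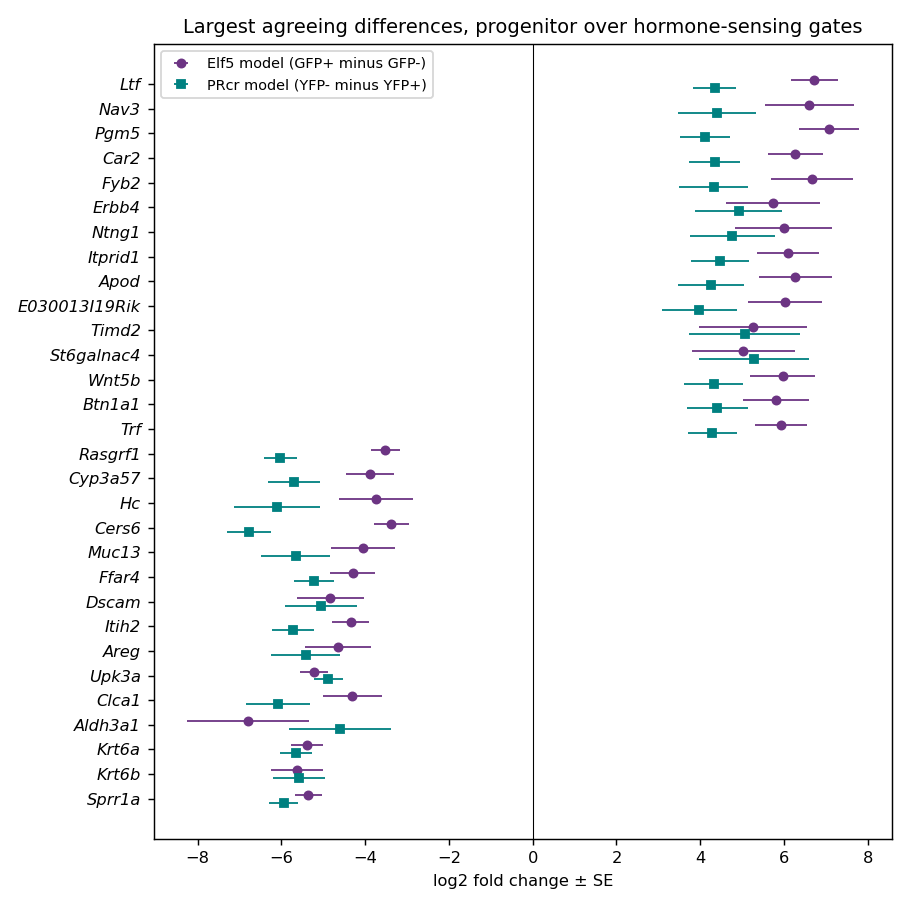
Log2 fold change with its SE in the Elf5 and PRcr models for the 15 largest agreeing increases and the 15 largest agreeing decreases, 1 row per gene. All 30 lie on the same side of 0 in both models, which the choice of genes fixes. Of the 15 increases, 14 are wider in the Elf5 model, and of the 15 decreases, 12 are wider in the PRcr model. The difference between models was called for 0 of the 30.

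The promoters of 4 genes that carry these results are shown because Elf5 and its relative Ehf, both ETS factors, were among the genes that rose: Ltf and Kit from the progenitor side, and Areg and Pgr from the hormone-sensing side. Each is the RefSeq window on GRCm38.p6 from 250 bases before to 50 after the gene start, on the + strand, 5′ to 3′. The ETS motif AGGAAG is in capitals, as is CTTCCT, its reading on the other strand. Other or shorter forms of the ETS motif were not searched and are not marked. The windows lie at chr9:111019042-111019341 for Ltf, chr5:75574737-75575036 for Kit, chr5:91139349-91139648 for Areg and chr9:8899583-8899882 for Pgr, whose window is set on a start 933 bases inside the gene interval given above.
Ltf: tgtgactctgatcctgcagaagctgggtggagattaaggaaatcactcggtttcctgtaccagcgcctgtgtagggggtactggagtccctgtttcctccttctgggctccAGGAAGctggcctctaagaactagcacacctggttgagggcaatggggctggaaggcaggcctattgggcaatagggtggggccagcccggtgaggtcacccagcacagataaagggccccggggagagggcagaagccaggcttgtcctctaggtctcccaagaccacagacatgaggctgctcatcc
Kit: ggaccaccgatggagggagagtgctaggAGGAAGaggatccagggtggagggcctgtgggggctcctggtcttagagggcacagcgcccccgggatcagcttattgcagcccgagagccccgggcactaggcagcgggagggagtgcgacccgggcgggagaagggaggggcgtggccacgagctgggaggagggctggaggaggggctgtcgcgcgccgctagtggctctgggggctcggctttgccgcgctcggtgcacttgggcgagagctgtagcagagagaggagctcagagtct
Areg: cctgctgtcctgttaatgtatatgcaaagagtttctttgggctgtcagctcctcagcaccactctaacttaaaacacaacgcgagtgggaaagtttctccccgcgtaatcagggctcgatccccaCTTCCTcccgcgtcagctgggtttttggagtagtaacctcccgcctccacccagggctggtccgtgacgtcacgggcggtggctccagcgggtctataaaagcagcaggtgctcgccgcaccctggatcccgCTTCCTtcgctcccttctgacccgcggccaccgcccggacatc
Pgr: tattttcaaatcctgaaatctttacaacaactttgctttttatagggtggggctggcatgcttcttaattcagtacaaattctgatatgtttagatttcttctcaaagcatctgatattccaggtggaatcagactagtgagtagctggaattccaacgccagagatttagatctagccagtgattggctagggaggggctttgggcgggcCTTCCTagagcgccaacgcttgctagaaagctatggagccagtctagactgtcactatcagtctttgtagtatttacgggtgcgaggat

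AGGAAG, on either strand, occurred 1 time in the windows of Ltf, Kit and Pgr and 2 times in that of Areg. It was thus present on both sides of the comparison. No window of the 4 held the STAT motif TTCNNNGAA, the forkhead motif TGTTTAC or the palindromic estrogen response element. Both strands were searched, so that GTAAACA counted for the forkhead motif, and a STAT match can overlap an ETS match. Windows could be matched for 2462 of the 3206 agreeing genes. AGGAAG was present in 33.9% of the 1272 windows of agreeing higher genes and 31.3% of the 1190 of agreeing lower genes. It was present in 33.1% of 11842 windows of genes tested and 35.1% of all 27025. The STAT motif was in 5.66% and 6.55% of the agreeing higher and lower windows, against 7.08% of those of genes tested, and the forkhead motif in 3.07% and 2.77%, against 2.54%. The estrogen response element was in 0 of either set and in 0.0169% of the windows of genes tested. These shares describe letters in the window and no site of binding.

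Gene lists were read by their counts of called members and their median, beside 20.4% higher, 19.7% lower and a median log2 fold change of 0.02 over all genes tested. Within lists, values written as at or by a number are log2 fold changes with SE. Genes named from a list are its key members and its largest called changes; Cd200, Wfdc2, Dgat2, Gpam, Scd2 and the remaining small counts below were named after their values were seen. A list's count is given anew where leaving out 1 library moved it by more than 1.5 times and by at least 2 genes. Of the 15 luminal progenitor markers, 14 rose, all agreeing, with a median of 4.25. Kit, the receptor tyrosine kinase of luminal progenitors, had 785 and 840 CPM in GFP+ and 1967 and 2056 in YFP- libraries, against 3.71 and 31.8 in GFP- and 133 and 55.8 in YFP+ libraries, at 4.96 ± 0.75 (adjusted p 0.00225). Aldh1a3, the retinaldehyde dehydrogenase behind the ALDH activity used to sort progenitors, had 193 and 290 CPM in GFP+ and 1574 and 1580 in YFP- libraries, against 3.85 and 5.59 in GFP- and 121 and 54.7 in YFP+ libraries, at 4.90 ± 0.46 (adjusted p 0.000302). Both were higher in YFP- than in GFP+ libraries, the reverse of Elf5, and still did not overlap with the hormone-sensing gates. Cd14, the lipopolysaccharide co-receptor, had 377 to 584 CPM in the progenitor gates, against 16.3 to 48 in the hormone-sensing gates, at 4.25 ± 0.25 (adjusted p 2.93e-05). Ehf, an epithelial ETS factor, had 732 to 845 CPM in the progenitor gates, against 60.5 to 98 in the hormone-sensing gates, at 3.36 ± 0.14 (adjusted p 1.26e-05). Lcn2, Sox10, Wfdc18 and Hey1 rose by 5.03, 4.85, 4.85 and 4.74 on the log2 scale. Cd200 was the exception, at 202 and 187 CPM in GFP+ and 44.1 and 44.3 in YFP- libraries, against 287 and 89.3 in GFP- and 631 and 788 in YFP+ libraries, with -1.97 ± 1.04 (adjusted p 0.18). It overlapped, and without GFP- replicate 2 it was called at -2.89 (adjusted p 0.0466).

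Of 13 hormone-sensing markers tested, 12 fell and 11 agreed, with a median of -4.02. Esr1, the estrogen receptor alpha, had 30.1 and 42.1 CPM in GFP+ and 14.8 and 12.5 in YFP- libraries, against 148 and 164 in GFP- and 198 and 159 in YFP+ libraries, at -2.91 ± 0.36 (adjusted p 0.000902). Prlr, the prolactin receptor, had 446 and 907 CPM in GFP+ and 312 and 273 in YFP- libraries, against 4372 and 4235 in GFP- and 6385 and 6281 in YFP+ libraries, at -3.55 ± 0.44 (adjusted p 0.000762). Neither overlapped, and the GFP+ libraries lay above the YFP- libraries for both. Foxa1, the pioneer factor that opens chromatin for the estrogen receptor, had 23 to 72.4 CPM in the progenitor gates, against 393 to 558 in the hormone-sensing gates, at -3.79 ± 0.38 (adjusted p 0.000344). Wnt4, the progesterone-induced Wnt ligand, had 5.42 to 16.2 CPM in the progenitor gates, against 126 to 225 in the hormone-sensing gates, at -4.27 ± 0.38 (adjusted p 0.000209). Prom1 (CD133), Ly6a (SCA-1), Cited1 and Stc2 fell by 4.02, 4.0, 4.07 and 4.11 on the log2 scale. Greb1, an estrogen receptor target, was called at -5.11 ± 1.35 (adjusted p 0.0191) but had 0 counts in GFP- replicate 2 and overlapped. Its call was lost without GFP- replicate 1, GFP+ replicate 1, GFP+ replicate 2, YFP- replicate 1, YFP- replicate 2 or YFP+ replicate 2, with values of -3.96, -5.41, -4.87, -4.93, -5.46 and -4.96. Tnfsf11, which encodes RANKL, was near the floor, at 0.108 and 0.031 CPM in GFP+ and 0 and 0 in YFP- libraries, against 1.8 and 0.0548 in GFP- and 0.6 and 0 in YFP+ libraries. It was not called at -4.30 ± 1.66 (adjusted p 0.0707), but without GFP- replicate 2 it was called at -5.07 (adjusted p 0.0233). Calca was too low to be tested.

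Steroid receptors and their luminal cofactors fell in 10 and rose in 4 of 17 genes tested, with a median of -0.90, and 7 of the decreases and all 4 increases agreed. Beside Esr1, Pgr and Foxa1, Myb and Tbx3, both transcription factors, fell by 3.19 and 2.51 on the log2 scale. Tfap2c, an AP-2 factor, moved the other way, with 131 to 175 CPM in the progenitor gates, against 14.3 to 43.5 in the hormone-sensing gates, at 2.74 ± 0.35 (adjusted p 0.00103). Gata3, a luminal lineage factor, had 151 to 257 CPM in the progenitor gates, against 243 to 299 in the hormone-sensing gates, which overlapped. Its value of -0.42 ± 0.13 (adjusted p 0.0281) was no longer called without GFP+ replicate 1, YFP- replicate 1, YFP- replicate 2, YFP+ replicate 1 or YFP+ replicate 2, at -0.45, -0.43, -0.33, -0.40 and -0.37. Of 13 paracrine effectors tested, 5 fell and 2 rose, with a median of -1.52. Beside Areg, Wnt4 and Cited1, Il13ra1, an IL-13 receptor chain, fell by 1.52, whereas Il4ra, its partner chain, rose by 1.08 on the log2 scale. Prolactin and STAT signalling genes rose in 5 and fell in 4 of 15, with a median of -0.22. Jak2, the kinase of the prolactin receptor, had 95.9 to 150 CPM in the progenitor gates, against 176 to 309 in the hormone-sensing gates, at -1.06 ± 0.19 (adjusted p 0.00332). Socs3 and Ptpn1, which restrain JAK signalling, fell by 2.41 and 1.89, and Id2 rose by 1.88 on the log2 scale. Stat5a was not called at -0.80 ± 0.37 (adjusted p 0.128) but was without GFP- replicate 2 (-1.14, adjusted p 0.00825), and Cish and Socs2, STAT5 targets, were not called at -0.22 ± 0.14 and -0.46 ± 0.48.

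Milk proteins rose in 8 of 16 genes and fell in none, with a median of 4.58, or 4.24 with Lpo, at 0 counts in all 4 hormone-sensing-gate libraries, set to its bound against 3 counts per library. Csn3, kappa-casein, had 9464 and 5816 CPM in GFP+ and 2234 and 2073 in YFP- libraries, against 80.1 and 234 in GFP- and 121 and 66.5 in YFP+ libraries, at 5.06 ± 0.49 (adjusted p 0.000283). Lalba, the lactose synthase subunit alpha-lactalbumin, had 2556 and 2495 CPM in GFP+ and 151 and 135 in YFP- libraries, against 21.5 and 108 in GFP- and 8.36 and 4.96 in YFP+ libraries, at 4.86 ± 0.57 (adjusted p 0.000814). Csn2, beta-casein, had 10209 and 1477 CPM in GFP+ and 3.56 and 1.57 in YFP- libraries, against 61.3 and 53.9 in GFP- and 0.648 and 7.81 in YFP+ libraries, and was not called at 3.16 ± 2.64 (adjusted p 0.39). For Csn2 the GFP+ libraries were the highest, and the YFP- libraries overlapped with the hormone-sensing gates. Csn1s1, alpha-S1-casein, had 8561 and 2081 CPM in GFP+ and 20 and 9.76 in YFP- libraries, against 51.5 and 77.2 in GFP- and 1.25 and 7.41 in YFP+ libraries, at 4.15 ± 1.41 (adjusted p 0.0552). Pigr, the immunoglobulin transporter of mucosal epithelium, rose by 4.84 on the log2 scale. The summed milk protein list was 93991 and 45183 CPM in GFP+, 8789 and 9050 CPM in YFP-, 681 and 1654 CPM in GFP- and 577 and 383 CPM in YFP+ libraries, so the 2 progenitor gates differed from each other on it without overlap. Milk fat globule and lipid synthesis genes rose in 12 and fell in 3 of 20, with a median of 2.32. Xdh and Plin2, of the milk fat globule and lipid droplet coat, had log2 differences of 4.67 ± 0.61 (adjusted p 0.00121) and 3.30 ± 0.20 (adjusted p 2.98e-05). Mfge8, a milk fat globule protein, and Acsl1, which activates fatty acids, rose by 4.49 and 3.68. The decreases were Dgat2, Gpam and Scd2, enzymes of triglyceride and fatty acid synthesis, at -3.60, -1.59 and -1.47.

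Secreted mucosal defence genes rose in 10 and fell in 1 of 15 tested, with a median of 4.25, or 4.01 with Lpo at its bound. C3, complement component 3, had 827 and 532 CPM in GFP+ and 142 and 172 in YFP- libraries, against 13.3 and 24.7 in GFP- and 9.8 and 15.8 in YFP+ libraries, at 4.39 ± 0.45 (adjusted p 0.00047). Lcn2, which binds bacterial siderophores, had 2264 to 3301 CPM in the progenitor gates, against 25.4 to 145 in the hormone-sensing gates. Both separated the gates without overlap, and C3 was higher in GFP+ than in YFP- libraries. Chil1 and Lbp, a chitinase-like protein and the lipopolysaccharide-binding protein, rose by 4.76 and 4.73 on the log2 scale. Lpo, lactoperoxidase, was at 1.34 CPM or less in every library and counts among the increases of this list and of the milk proteins. Its call was lost with DESeq2 (4.99), without the block by model (6.98) and with the replicate block (6.57). It was also lost without any library but GFP+ replicate 1, at 5.99 to 7.21. The decrease was Wfdc2, a secreted WAP-domain protein of mucosal surfaces, with 15.7 to 42.3 CPM in the progenitor gates, against 302 to 868 in the hormone-sensing gates, at -4.35 ± 0.50 (adjusted p 0.000729). Luminal keratins and mucins were split, with 4 higher, 3 lower (5 without GFP- replicate 2) and a median of -0.35 over 11 tested. The mucins Muc15, Muc4 and Muc1 rose by 4.95, 3.85 and 3.83, and the keratin Krt7 fell by 2.59 on the log2 scale, with 122 to 159 CPM in the progenitor gates, against 489 to 1185 in the hormone-sensing gates. Krt8, Krt18 and Krt19, the keratins of simple epithelium, had values of -0.35 ± 0.23 (adjusted p 0.28), -0.40 ± 0.18 (adjusted p 0.105) and -0.87 ± 0.19 (adjusted p 0.00795). Without GFP- replicate 2, Krt8 and Krt18 were called as well, at -0.58 (adjusted p 0.0161) and -0.56 (adjusted p 0.00572).

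Among transcription factor families, ETS factors rose in 7 and fell in 3 of 18 tested, with a median of 0.36. Etv5, Etv6 and Gabpa rose by 1.98, 1.11 and 0.62 on the log2 scale, while Etv4 and Spdef fell by 2.41 and 2.15. SOX factors rose in 3 and fell in 4 of 8 tested, with a median of 0.24. Sox9, expressed in several epithelial stem cell pools, had 254 and 331 CPM in GFP+ and 292 and 322 in YFP- libraries, against 597 and 746 in GFP- and 678 and 724 in YFP+ libraries, at -1.19 ± 0.12 (adjusted p 0.000205). Sox10, a neural crest factor also found in mammary progenitors, had 259 and 272 CPM in GFP+ and 334 and 329 in YFP- libraries, against 1.91 and 9.75 in GFP- and 25.1 and 10.5 in YFP+ libraries, at 4.85 ± 0.63 (adjusted p 0.00121). Sox9 and Sox10 thus lay on opposite sides, without overlap. Sox5 and Sox13 rose by 4.06 and 0.93, and Sox12 fell by 2.14. Homeobox and T-box factors rose in 6 and fell in 3 of 14 tested, with a median of 0.63. Msx2, a target of BMP signalling in other epithelia, had 1.01 to 6.72 CPM in the progenitor gates, against 45.2 to 54.4 in the hormone-sensing gates, at -4.24 ± 0.48 (adjusted p 0.000582), and Meis1 fell by 2.20. Satb1, a chromatin organiser, had 39 to 46.2 CPM in the progenitor gates, against 0.818 to 9.99 in the hormone-sensing gates, at 3.39 ± 0.70 (adjusted p 0.00878). EMT factors and epithelial guardians rose in 4 and fell in 1 of 13 tested, with a median of 0.02, and without YFP+ replicate 1 the increases numbered 2. Ovol2 and Grhl2, which maintain epithelial identity, rose by 1.42 and 0.45, and the splicing factor Esrp2 fell by 0.62.

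Receptor tyrosine kinases had members on both sides, as did all genes tested. Of 12 KIT pathway genes, 7 rose and none fell, with a median of 0.57. Gab2, Pik3r1, Gab1 and Lyn, which act below the receptor, rose by 2.23, 1.94, 1.87 and 1.80 on the log2 scale, and the ligand Kitl was not called at 0.58 ± 0.28 (adjusted p 0.135). Of 15 ERBB receptors and EGF ligands tested, 4 rose and 6 fell, with a median of -0.21; 2 rose without GFP+ replicate 2, YFP- replicate 1, YFP- replicate 2 or YFP+ replicate 1. Egfr, the receptor of amphiregulin, had 100 and 118 CPM in GFP+ and 162 and 175 in YFP- libraries, against 1.26 and 49.7 in GFP- and 10.4 and 6.44 in YFP+ libraries. GFP- replicate 2 was the highest hormone-sensing library by far, and Egfr was not called at 3.20 ± 1.08 (adjusted p 0.0553) but was called at 4.96 (adjusted p 0.00132) without it. Erbb4 had 12.2 and 23.3 CPM in GFP+ and 38.1 and 37 in YFP- libraries, against 0.464 and 0.192 in GFP- and 2.23 and 0.204 in YFP+ libraries. Erbb3 was not called at -0.19 ± 0.10 (adjusted p 0.187). Among the ligands, Areg, Epgn and Nrg4 fell by 5.03, 3.80 and 3.79, and Nrg2 rose by 3.99. The call of Nrg2 was lost without the block by model (4.23). FGF receptors and readouts rose in 6 and fell in 3 of 13 tested, with a median of 0.47. Fgfr2, a receptor needed for ductal growth, had 91.4 and 252 CPM in GFP+ and 31.7 and 23.7 in YFP- libraries, against 1368 and 1700 in GFP- and 1087 and 1129 in YFP+ libraries, at -4.24 ± 0.60 (adjusted p 0.00173). Spry2 and Spry4, feedback inhibitors induced by FGF and EGF signals, rose by 2.77 and 2.31. Fgf2 had 0 counts in all 4 hormone-sensing-gate libraries, against 0.124 to 1.4 CPM in the progenitor gates. The mean of the progenitor-gate libraries, not each library, was at least 8.67-fold higher against 3 counts per library. The call of Fgf2 was lost with the replicate block (7.67). IGF system genes rose in 5 and fell in 1 of 12 tested, with a median of -0.15. Igf1r had 83.2 to 164 CPM in the progenitor gates, against 3.14 to 22.5 in the hormone-sensing gates, at 3.36 ± 0.60 (adjusted p 0.00471), and the adaptors Irs2 and Irs1 rose by 3.11 and 2.27.

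Notch genes rose in 11 and fell in 2 of 20 tested, with a median of 1.04, and 7 of the increases and both decreases agreed; without GFP+ replicate 1 the increases numbered 7. Notch1 had 627 and 655 CPM in GFP+ and 505 and 530 in YFP- libraries, against 93.3 and 150 in GFP- and 140 and 120 in YFP+ libraries, at 2.20 ± 0.17 (adjusted p 6.03e-05). Jag1, a Notch ligand, had 6.54 and 12.9 CPM in GFP+ and 7.78 and 4.5 in YFP- libraries, against 95.3 and 130 in GFP- and 113 and 114 in YFP+ libraries, at -3.87 ± 0.31 (adjusted p 0.00011). The receptor was thus higher in the progenitor gates and this ligand higher in the hormone-sensing gates, neither with overlap. Lfng, the glycosyltransferase that tunes Notch for its ligands, also fell, by 4.73, while Hey1, a Notch target, had 444 to 591 CPM in the progenitor gates, against 4.31 to 48.4 in the hormone-sensing gates. Dtx1 and Maml2 rose by 4.37 and 3.10, and Notch3 was not called at 0.32 ± 0.12 (adjusted p 0.0702). Wnt ligands, receptors and targets rose in 10 and fell in 6 of 28 tested, with a median of 0.35. Wnt5a, a ligand of the non-canonical branch, had 22.9 and 47.5 CPM in GFP+ and 3.35 and 3.5 in YFP- libraries, against 320 and 410 in GFP- and 128 and 178 in YFP+ libraries, at -4.39 ± 0.54 (adjusted p 0.000996). Wnt5b had 203 and 207 CPM in GFP+ and 270 and 271 in YFP- libraries, against 1.26 and 5.28 in GFP- and 18.4 and 8.75 in YFP+ libraries, on the opposite side. Its lack of overlap is fixed by its choice among the largest increases. Wnt11 fell by 3.98, the R-spondin receptor Lgr6 rose by 4.52, and its ligand Rspo1 rose by 5.05, at 6.83 CPM or less. Axin2, a general Wnt target, was not called at 0.00 ± 0.60 (adjusted p 0.998).

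TGF-beta, activin and BMP genes rose in 8 and fell in 8 of 24, with a median of 0.27. Tgfb2 had 32.4 to 70.9 CPM in the progenitor gates, against 0.218 to 5.34 in the hormone-sensing gates, at 4.60 ± 0.81 (adjusted p 0.00454), and Ltbp1, which stores latent TGF-beta, rose by 3.68. The activin subunits moved apart, with Inhba at -4.02 ± 0.71 (adjusted p 0.00348) and Inhbb at 1.88 ± 0.16 (adjusted p 8.08e-05). Bmp3 and the receptor Bmpr1b fell by 3.85 and 3.79, and both calls were lost without the block by model (-3.54 and -3.00). Of 8 Hedgehog genes tested, Ptch1 and Sufu rose, by 1.01 and 0.86, and Gli3 fell by 1.97, with a median of 0.94. The ligand Ihh was not called at 1.73 ± 1.52 (adjusted p 0.406). Retinoid genes rose in 4 and fell in 1 of 15 tested (3 without GFP+ replicate 2), with a median of 0.01. Beside Aldh1a3, the retinoid-binding Crabp2 rose by 4.08. Aldehyde dehydrogenases and glutathione enzymes rose in 4 and fell in 9 of 21, with a median of -0.71. Nqo1, a quinone reductase, had 81.7 to 119 CPM in the progenitor gates, against 1.39 to 8.57 in the hormone-sensing gates, at 4.35 ± 0.44 (adjusted p 0.000428). In contrast, Aldh3a1, a corneal and gastric aldehyde dehydrogenase, had 0.124 to 1.37 CPM in the progenitor gates, against 5.1 to 50.8 in the hormone-sensing gates, at -5.51 ± 0.95 (adjusted p 0.00401).

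Most antigen presentation genes were lower in the progenitor gates. Of 17 MHC genes, 10 fell, 8 of them agreeing, and 1 rose, with a median of -0.68. B2m, the light chain of MHC class I, had 279 and 299 CPM in GFP+ and 199 and 189 in YFP- libraries, against 495 and 684 in GFP- and 468 and 497 in YFP+ libraries, at -1.17 ± 0.13 (adjusted p 0.000256). H2-K1 fell by 0.59, the class I regulator Nlrc5 by 2.59 and the immunoproteasome subunit Psmb9 by 2.0; the increase was Cd1d1, at 1.40. Cd74 and H2-Aa, of MHC class II, were not called at 0.92 ± 0.55 and 0.63 ± 0.53, and the leukocyte markers Ptprc and Csf1r were at 1.56 CPM or less in every library. Interferon response genes rose in 5 and fell in 6 of 22, with a median of 0.03. Ifit2 and Ifi44 rose by 3.73 and 2.63, Irf7 rose by 1.55, Usp18 fell by 3.23, and Isg15 was not called at -0.06 ± 0.28. NF-kB targets, chemokines and cytokines rose in 11 and fell in 3 of 22 tested (5 without GFP- replicate 2), with a median of 0.84. Cxcl1 and Cxcl2, neutrophil-attracting chemokines, rose by 3.21 and 4.31. Il33, an alarmin, had 33.3 and 70.7 CPM in GFP+ and 6.98 and 4.63 in YFP- libraries, against 847 and 708 in GFP- and 157 and 166 in YFP+ libraries, at -4.34 ± 0.33 (adjusted p 0.000102). Il33 did not overlap between the gates, and both Elf5-model gates lay above their PRcr-model counterparts. Cxcl15 and Il18 fell by 4.70 and 5.54, the second at 2.25 CPM or less, and Ccl28 was not called at 0.62 ± 0.60 (adjusted p 0.455). Immediate early genes rose in 14 and fell in 1 of 20, with a median of 1.31. Fos had 8843 and 11344 CPM in GFP+ and 7583 and 7200 in YFP- libraries, against 3262 and 5613 in GFP- and 4010 and 2741 in YFP+ libraries, at 1.16 ± 0.21 (adjusted p 0.00315), and Fosb and Egr1 rose by 1.27 and 2.14. Atf3, a stress-induced factor of the same list, was not called at 0.15 ± 0.15 (adjusted p 0.469). Heat shock genes rose in 2 and fell in 1 of 13, with a median of 0.07: the chaperones Hspa5 and Hspa8 rose by 1.22 and 0.81, and Hspa1a and Hspa1b were not called at -0.12 ± 0.25 and -0.19 ± 0.21.

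Cell cycle genes showed few calls. Of 24 S phase genes, 4 rose and none fell, with a median of 0.13, and of 24 G2 and M phase genes none rose and 1 fell, with a median of -0.15, both under the shares over all genes. The S phase increases numbered 2 without GFP+ replicate 1, YFP- replicate 2 or YFP+ replicate 1. Summed, the G2 and M phase list stood at 827 and 247 CPM in GFP+ and 429 and 689 in YFP- libraries, against 862 and 410 in GFP- and 361 and 683 in YFP+ libraries, so that libraries of 1 model with the same replicate number lay on the same side. The S phase sums did likewise, at 1011 and 484 CPM in GFP+ and 906 and 1063 in YFP- libraries, against 891 and 492 in GFP- and 711 and 1016 in YFP+ libraries. Mki67, a marker of cycling cells, had 193 and 50.5 CPM in GFP+ and 113 and 189 in YFP- libraries, against 173 and 80.9 in GFP- and 66.4 and 148 in YFP+ libraries, at 0.21 ± 0.51 (adjusted p 0.773). The spread within the gates was wider than the difference between them, with GFP+ replicate 2 the lowest library. Pcna and Slbp rose by 0.74 and 0.54. Pola1 and Fen1, at 1.21 and 1.20, were called, but Pola1 lost its call without GFP+ replicate 1, YFP- replicate 2 or YFP+ replicate 1 (0.98, 1.11 and 1.08) and Fen1 without any library but GFP+ replicate 2 and GFP- replicate 2 (0.79 to 1.39). Aurka, the mitotic kinase, was called at -1.57 and lost its call without any library but GFP+ replicate 1 and GFP- replicate 2, at -1.22 to -1.65. Top2a and Ccnb1 were not called at -0.08 ± 0.53 and -0.68 ± 0.37. D cyclins, CDK inhibitors and their partners rose in 6 and fell in 3 of 18, with a median of 0.03; the increases numbered 2 without YFP- replicate 2 or YFP+ replicate 1, and 3 without any other library but GFP- replicate 2. Rb1, the retinoblastoma protein, had 1044 and 1175 CPM in GFP+ and 565 and 572 in YFP- libraries, against 41.7 and 63.3 in GFP- and 90.1 and 70.1 in YFP+ libraries, at 3.61 ± 0.37 (adjusted p 0.00035). It did not overlap, and Cdk6, the kinase that phosphorylates it, rose by 3.63. Cdkn2a and Cdkn2b fell by 4.46 and 2.15, at 2.22 CPM or less, and Ccnd2 was not called at -3.32 ± 2.46 (adjusted p 0.334).

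The metabolic lists had medians between -0.41 and 0.18. Oxidative phosphorylation genes fell in 12 and rose in 2 of 21, with a median of -0.41 and none of the decreases agreeing in both models. The decreases numbered 7 without GFP+ replicate 2, 6 without YFP- replicate 1, 5 without YFP- replicate 2 and 7 without YFP+ replicate 2. Cox5a had 44.4 to 74.1 CPM in the progenitor gates, against 77.2 to 134 in the hormone-sensing gates, at -1.04 ± 0.22 (adjusted p 0.0067), and Ppargc1a, which promotes mitochondrial biogenesis, rose by 1.21. Cholesterol synthesis genes rose in 3 and fell in 6 of 20 (3 without GFP+ replicate 2), with a median of -0.17. Fdft1 fell by 1.34, Insig1, which holds back the pathway, rose by 1.64, and Hmgcs1 was not called at -0.15 ± 0.31 (adjusted p 0.745). Glycolysis genes rose in 6 and fell in 5 of 19, with a median of 0.18. The increases numbered 3 without GFP- replicate 1, and the decreases 2 without YFP- replicate 1 or 2 and 3 without GFP+ replicate 2, YFP+ replicate 1 or YFP+ replicate 2. The isoforms Aldoc and Ldhb rose by 2.86 and 4.14 and Pfkfb3 fell by 2.42, while Hk2 and Ldha were not called at -1.30 ± 0.83 and 0.60 ± 0.32. Of 20 ribosomal protein genes, Rpl3 rose, by 0.70, with a median of 0.09 over the list. The call of Rpl3 was lost without the block by model (0.54).

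Adhesion and matrix genes moved both ways, as did all genes tested (20.4% higher and 19.7% lower). Junction and polarity genes rose in 9 and fell in 5 of 23, with a median of 0.22. Cdh1, E-cadherin, was not called at -0.08 ± 0.10 (adjusted p 0.573), the gap junction gene Gjb2 rose by 4.11, and Cldn10, Dsc2 and Cldn8 fell by 3.66, 2.11 and 1.18. Basement membrane and integrin genes rose in 9 and fell in 8 of 24, with a median of 0.52; 5 rose without YFP- replicate 2 or YFP+ replicate 2. Itga5, the fibronectin receptor subunit, had 2.74 and 3.75 CPM in GFP+ and 1.74 and 0.756 in YFP- libraries, against 41.6 and 35.2 in GFP- and 32.3 and 36.9 in YFP+ libraries, at -4.15 ± 0.36 (adjusted p 0.000123). Itgb3 (CD61), a surface marker used for luminal progenitors, had 157 and 129 CPM in GFP+ and 66.6 and 45.9 in YFP- libraries, against 3.9 and 17.9 in GFP- and 8.57 and 2.71 in YFP+ libraries, at 3.52 ± 0.57 (adjusted p 0.00314). Neither overlapped, so single integrin chains lay on opposite sides, and Itgb8 rose by 4.23. Netrins, slits, semaphorins and ephrins rose in 8 and fell in 5 of 27 tested, with a median of 0.32, against 14 higher, 5 lower and a median of 1.00 without GFP- replicate 2. Ntn1, netrin 1, had 382 and 392 CPM in GFP+ and 722 and 739 in YFP- libraries, against 3.71 and 10.2 in GFP- and 52.2 and 25.5 in YFP+ libraries, at 5.0 ± 0.54 (adjusted p 0.000561). Robo1, a SLIT receptor, fell by 3.14 and Sema7a by 4.44, at 3.97 CPM or less. Ion channels and transporters rose in 10 and fell in 6 of 23 tested, with a median of 1.03. The potassium channels Kcnq1 and Kcnn4 rose by 5.06 and 4.64 and the phosphate transporter Slc34a2 by 4.43. Slc5a5, the iodide transporter, had 8.75 to 41.8 CPM in the progenitor gates, against 122 to 647 in the hormone-sensing gates, at -4.42 ± 0.70 (adjusted p 0.00284). Cftr was too low to be tested. Peptide hormone and dense core vesicle genes rose in 3 and fell in 3 of 9 tested out of 21, with a median of -0.02; 1 rose without any library but GFP- replicate 1 and GFP- replicate 2. Cck, cholecystokinin, had 46.9 to 96.5 CPM in the progenitor gates, against 1.09 to 5.19 in the hormone-sensing gates, at 4.62 ± 0.63 (adjusted p 0.00148). The exocytosis genes Syt7 and Snap25 fell by 4.17 and 6.11, the second at 3.79 CPM or less.

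Marker lists of cells outside the luminal gate gave few calls, and the medians and summed levels of those for basal cells and keratinocytes rested on GFP- replicate 2. Basal markers rose in 2 and fell in none of 14, with a median of -1.03, and in 4 with a median of 0.84 without that library. Krt14 and Krt5, basal keratins, were not called at -2.10 ± 5.28 and -3.19 ± 5.63, and Trp63, the basal p63, changed sign without it, at -2.61 ± 3.02 with and 1.5 (adjusted p 0.0342) without. The increases were Oxtr, the oxytocin receptor, with 58.8 to 113 CPM in the progenitor gates, against 1.25 to 11 in the hormone-sensing gates, at 4.14 ± 0.71 (adjusted p 0.00391), and Vim. Vim, the mesenchymal filament protein vimentin, was at 1.42 ± 0.36 (adjusted p 0.014) and lost its call without YFP+ replicate 1 (1.27) or YFP+ replicate 2 (1.23). Acta2, smooth muscle actin, was not called at -0.35 ± 0.27 (adjusted p 0.343). Keratinocyte markers fell in 1 and rose in none of 10 tested, with a median of -3.70, against 2 higher, 1 lower and a median of 1.30 without that library. Krt78 was the decrease, at -3.79 ± 0.48 (adjusted p 0.000623) with 0.606 to 1.89 CPM in the progenitor gates, against 9 to 27.8 in the hormone-sensing gates. Krt1 was not called at -4.90 ± 4.26, and Krt10 changed sign, at -2.77 ± 3.53 with and 1.30 (adjusted p 0.023) without. Fibroblast markers rose in 1 and fell in 2 of 10 tested, with a median of -1.10, and sums of 24 to 75.5 CPM in the progenitor gates and 24.3 to 148 CPM in the hormone-sensing gates. Pdgfra rose by 3.91, Dcn had 0.395 to 16.5 CPM in the progenitor gates, against 17.3 to 78.2 in the hormone-sensing gates, at -3.41 ± 0.68 (adjusted p 0.00751), and Col1a1 and Col1a2 were not called at -0.36 ± 0.50 and -0.16 ± 0.95. The call of Dcn was lost without the block by model (-2.87). Leukocyte markers rose in 1 (Cd68, at 1.25) and fell in none of 10 tested, with a median of 0.41 and sums of 6.83 to 18.2 CPM in the progenitor and 6.14 to 8.79 CPM in the hormone-sensing gates. Endothelial markers rose in 1 and fell in 2 of 12, with a median of -0.42 and sums of 38 to 46.5 CPM in the progenitor and 61.3 to 97.6 CPM in the hormone-sensing gates. Eng and Egfl7 fell by 3.48 and 3.03, Mcam rose by 1.90, and Pecam1 and Cdh5 were not called at -0.33 ± 0.40 and -0.64 ± 0.70. Of 8 adipocyte markers, only Fabp4 and Lipe were tested, with a median of -0.74. Lipe fell by 1.20 and made most of the list's sums, 26.4 to 35.6 CPM in the progenitor and 60.4 to 71.7 CPM in the hormone-sensing gates. Adipoq had 0 counts in all 8 libraries and Plin1 in 7.

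**Figure D4:**
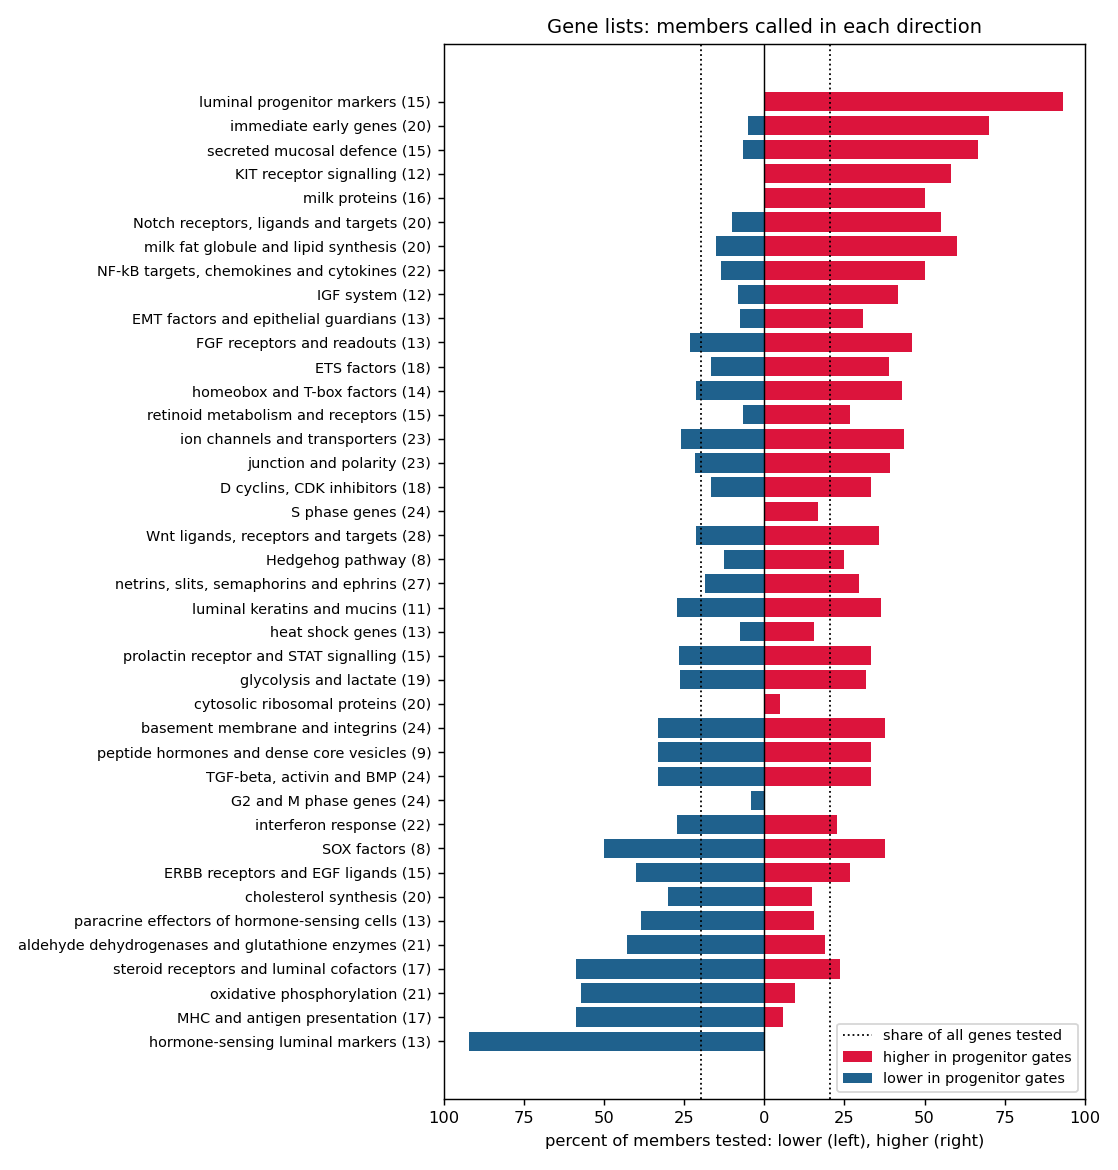
Percent of tested members called higher (right) or lower (left) in the progenitor gates for each of the 40 lists that do not describe cells outside the luminal gate, with dotted lines at the 20.4% and 19.7% called over all genes tested. Luminal progenitor markers reach furthest to the right, hormone-sensing markers furthest to the left, and the S phase, G2 and M phase and ribosomal lists stay inside the dotted lines.

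The difference between the gates itself differed between the models for 179 genes (1.12%), 125 of them higher and 54 lower in the Elf5 model, and 67 were agreeing genes that differed in size. For 31 the models were called in opposite directions. The count rested on single libraries: it was 86 without GFP+ replicate 1, 83 without GFP+ replicate 2, 8 without YFP- replicate 1, 3 without YFP- replicate 2, 1643 without GFP- replicate 1, 741 without GFP- replicate 2, 14 without YFP+ replicate 1 and 2 without YFP+ replicate 2. Gsta4, a glutathione transferase, had 15.8 and 10.5 CPM in GFP+ and 2.11 and 1.57 in YFP- libraries, against 6.66 and 6.49 in GFP- and 29.8 and 30.5 in YFP+ libraries. It was higher in GFP+ than in GFP- libraries, at 1.00 on the log2 scale, and lower in YFP- than in YFP+ libraries, at -4.03, a difference of 5.03 ± 0.37 (adjusted p 0.00533). It was no longer called without YFP- replicate 2 (4.84) or YFP+ replicate 2 (5.02). Fst, follistatin, which binds activin, had 3.15 and 4.68 CPM in GFP+ and 0.343 and 1.01 in YFP- libraries, against 89.8 and 108 in GFP- and 0.288 and 0.117 in YFP+ libraries. It was high in the GFP- libraries alone, with values of -4.66 in the Elf5 model and 1.65 in the PRcr model and a difference of -6.32 ± 0.77 (adjusted p 0.0254). Celsr1, a planar cell polarity cadherin, had 6.13 and 8.49 CPM in GFP+ and 75.9 and 85.6 in YFP- libraries, against 40.4 and 79 in GFP- and 57.1 and 62.3 in YFP+ libraries. It was low in the GFP+ libraries alone, with values of -3.03 and 0.43 and a difference of -3.47 ± 0.45 (adjusted p 0.0274). The calls of Fst and Celsr1 were lost without GFP+ replicate 1 (-6.04 and -3.23), GFP+ replicate 2 (-6.62 and -3.71), YFP- replicate 2 (-5.37 and -3.38), YFP+ replicate 1 (-7.13 and -3.40) or YFP+ replicate 2 (-5.85 and -3.53), and that of Celsr1 also without YFP- replicate 1 (-3.55). Lrrc36, a leucine-rich repeat gene, had 48.3 and 38.9 CPM in GFP+ and 6.54 and 3.87 in YFP- libraries, against 1.53 and 1.34 in GFP- and 4.8 and 2.77 in YFP+ libraries, high in the GFP+ libraries alone. Its values were 4.92 in the Elf5 model and 0.46 in the PRcr model, a difference of 4.46 ± 0.50 (adjusted p 0.0157), lost without YFP- replicate 1 (4.90), YFP- replicate 2 (4.14), YFP+ replicate 1 (4.01) or YFP+ replicate 2 (4.81). None of these 4 genes is among the agreeing genes.

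The same gates sorted from TEBs, the proliferating ends of the ducts, show which of the ductal differences were shared with the growing tissue. Values in this comparison are CPM on the scale of all 24 libraries, in the order replicate 1 and 2 of the GFP gate and replicate 1 and 2 of the YFP gate. In TEBs 7571 of 16981 genes tested were called between the gates (44.6%). Of the 3206 genes agreeing in ducts, 2860 were called the same way in TEBs and 24 the opposite way; the TEB libraries took no part in choosing them, and the labels do not say whether they came from the same mice. The difference between ducts and TEBs in the size of the effect was called for 885 genes (5.21%), 586 with a higher and 299 with a lower value in ducts; DESeq2 split its calls 842 to 842. The count was 461 without GFP+ TEB replicate 1, 576 and 519 without GFP- TEB replicate 1 and 2, and 503 without YFP+ TEB replicate 2. Among agreeing genes 461 had such a call. For 390 of them the tissue difference had the sign of the duct effect, 270 of these higher and 120 lower in the progenitor gates. That group includes any gene with an effect of the opposite sign in TEBs, whatever its size there. Agreeing genes were chosen on the duct values, and this choice favours a wider difference in ducts.

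Several progenitor-gate genes of the ducts had a smaller or an opposite difference in TEBs. Itgb3 had 162, 132, 68.3 and 47.1 CPM in the progenitor gates of ducts, against 4, 18.3, 8.89 and 2.79 CPM in the hormone-sensing gates of ducts. In TEBs Itgb3 had 32.4, 28.7, 39.4 and 35 CPM in the progenitor gates, against 30.5, 53.5, 85 and 49.2 CPM in the hormone-sensing gates. It separated the gates of ducts but not those of TEBs, with values of 3.52 in ducts and -0.69 in TEBs and a difference of 4.19 ± 0.62 (adjusted p 0.00307). Ramp1, a subunit of the CGRP receptor, had 40.5, 52.6, 50.3 and 52.9 CPM in the progenitor gates of ducts, against 8.79, 7.49, 16.9 and 13.1 CPM in the hormone-sensing gates of ducts. In TEBs Ramp1 had 6.21, 7, 13.3 and 10.6 CPM in the progenitor gates, against 18.1, 19.9, 30.2 and 33.7 CPM in the hormone-sensing gates. It was higher in the progenitor gates of ducts and lower in those of TEBs, at 2.15 and -1.51, a difference of 3.64 ± 0.22 (adjusted p 4.35e-06). C3 had 852, 544, 146 and 177 CPM in the progenitor gates of ducts, against 13.6, 25.3, 10.2 and 16.2 CPM in the hormone-sensing gates of ducts. In TEBs C3 had 39.5, 34.1, 34.4 and 49.6 CPM in the progenitor gates, against 18.1, 16, 10.4 and 15 CPM in the hormone-sensing gates. The progenitor gates lay above the hormone-sensing gates in both tissues, at 4.39 in ducts and 1.38 in TEBs, a difference of 3.0 ± 0.48 (adjusted p 0.00434). Stc1, stanniocalcin 1, and Hcar2, a hydroxycarboxylic acid receptor, had values of 3.61 and 0.71 in ducts and 0.43 and -2.35 in TEBs. Of the genes higher in the hormone-sensing gates of ducts, Gga2, a Golgi sorting adaptor, was at -2.97 in ducts and -0.15 in TEBs (difference -2.85 ± 0.23, adjusted p 3.78e-05). Sprr1a had 2.91, 1.65, 0.54 and 0.453 CPM in the progenitor gates of ducts, against 92, 97.2, 25.7 and 36.7 CPM in the hormone-sensing gates of ducts. In TEBs Sprr1a had 34.8, 18.4, 10.6 and 8.91 CPM in the progenitor gates, against 192, 156, 80.7 and 64.5 CPM in the hormone-sensing gates. It separated the gates without overlap in ducts, which its choice among the largest decreases fixes, and also in TEBs. Its values were -5.62 in ducts and -2.84 in TEBs.

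Other genes had the wider difference in TEBs. Peg3, an imprinted zinc finger gene, had 62.1, 71.9, 26.3 and 23.9 CPM in the progenitor gates of ducts, against 3.41, 15.5, 5.25 and 5.46 CPM in the hormone-sensing gates of ducts. In TEBs Peg3 had 153, 189, 57.6 and 59.7 CPM in the progenitor gates, against 0.923, 1.01, 1.87 and 1.15 CPM in the hormone-sensing gates. Its values were 2.53 in ducts and 6.30 in TEBs, a difference of -3.78 ± 0.67 (adjusted p 0.00811), with the hormone-sensing gates of TEBs the lowest. Ptprz1, a receptor phosphatase, had 131, 114, 27.5 and 28.3 CPM in the progenitor gates of ducts, against 1.99, 5.13, 1.69 and 2.04 CPM in the hormone-sensing gates of ducts. In TEBs Ptprz1 had 10.2, 12.4, 6.49 and 9.26 CPM in the progenitor gates, against 0, 0, 0.066 and 0 CPM in the hormone-sensing gates. Both GFP- libraries and 1 YFP+ library of TEBs had 0 counts, so its difference of -4.32 ± 0.85 (adjusted p 0.0121) depends on the handling of zeros, and it was -7.15 without YFP+ TEB replicate 1. Satb1 had 40.2, 47.2, 44 and 46.3 CPM in the progenitor gates of ducts, against 0.84, 10.2, 4.01 and 2.49 CPM in the hormone-sensing gates of ducts. In TEBs Satb1 had 46.1, 46.7, 44.3 and 49.9 CPM in the progenitor gates, against 0.205, 0.437, 0.462 and 0.392 CPM in the hormone-sensing gates. Its difference of -3.54 ± 0.77 (adjusted p 0.0228) lost its call without GFP+ duct replicate 1 (-3.41), GFP+ duct replicate 2 (-3.49), GFP+ TEB replicate 1 (-3.55), GFP- TEB replicate 1 (-3.37), GFP- TEB replicate 2 (-3.70), YFP+ duct replicate 1 (-3.51) or YFP+ TEB replicate 2 (-3.56). Mcc, at 1.33 in ducts and 4.72 in TEBs, had a difference of -3.40 ± 0.76 (adjusted p 0.0251), which lost its call without GFP+ duct replicate 1 (-3.27), GFP+ duct replicate 2 (-3.24), GFP+ TEB replicate 1 (-3.28), YFP- duct replicate 1 (-3.44), GFP- TEB replicate 1 (-3.09) or GFP- TEB replicate 2 (-3.07). GFP- duct replicate 2 held the highest Satb1, Mcc and Peg3 of the hormone-sensing duct libraries, beside its basal and keratinocyte markers. The part of those markers in these values was not tested. Without that library the duct values of Satb1, Mcc and Peg3 were 4.39, 2.05 and 2.97, against 3.39, 1.33 and 2.53 with it. With it included, Mcc overlapped between the gates of ducts and was not called there.

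**Figure D5:**
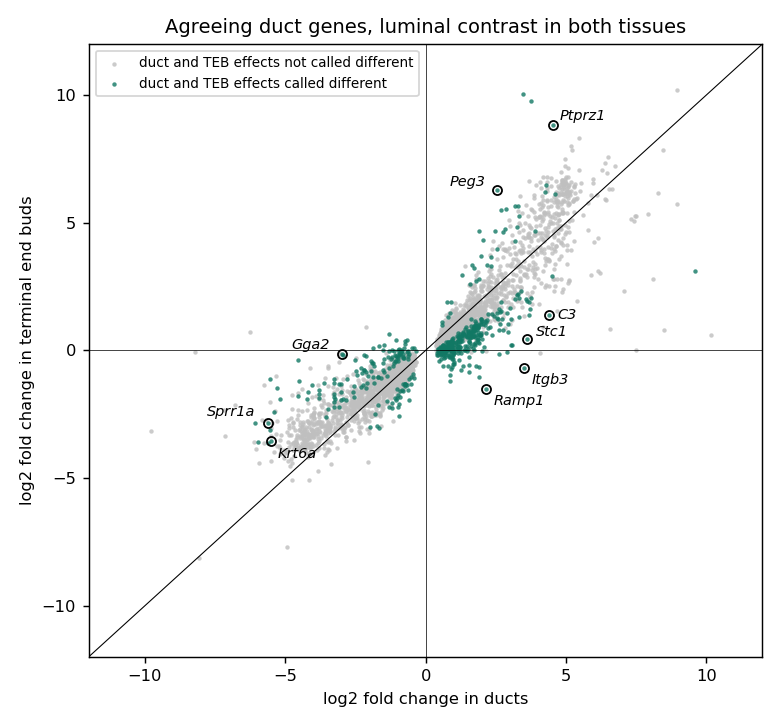
Log2 fold change, progenitor minus hormone-sensing gates, in ducts (x axis) and in TEBs (y axis) for the agreeing genes, 1 point per gene, coloured where the difference between the tissues was called. Of the 3206 genes, 2860 were called the same way in TEBs. For 390 of the 461 with a called difference, it had the sign of the duct value, which the choice of genes on duct values favours. Genes such as Itgb3 and Ramp1 sit near or below 0 in TEBs.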

How the data were processed

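RNA was total RNA made into TruSeq v2 libraries, per the labels' protocols, a kit that does not mark strand, so a gene and its antisense partner cannot be told apart. The authors deposited raw counts per gene; featureCounts and the mm10 build are named in the submitters' processing notes, with aligner, annotation and strand setting not given in the sources used here. Reads carry no molecular identifiers, so error estimates cover these libraries only. Of 27179 gene IDs, 25275 matched RefSeq and 18 GENCODE symbols, and the unnamed rest held 1.27% of counts. Counts were filtered (filterByExpr, minimum 10, total 15), scaled by TMM and tested with edgeR 4.0.16 (R 4.3.3, limma 3.58.1) by its robust quasi-likelihood test on the 8 luminal duct libraries with terms for model and gate, Benjamini-Hochberg adjusted over all genes tested and called at 0.05. Differences between models came from a fit of the 4 groups, and those between tissues from the 16 luminal libraries. Each SE is the absolute log2 fold change divided by the square root of the quasi-likelihood F statistic. It thus follows from the test and is not a separate estimate of spread. The script was tested on simulated counts. DESeq2 1.42.0, other scalings and filters and left-out libraries were the alternatives.

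Genes named are Elf5, Pgr, Itgb1 and Epcam; per direction the 15 largest agreeing changes without overlap and with a mean of 10 CPM; key members and up to 4 further called members of each of 46 lists; per direction the 5 largest differences between models and between tissues; and the 5 most abundant genes per side. Some genes that fall under this rule are not reported here. The members and lists were chosen with earlier results of these data known. Antisense, overlapping and near-identical genes (Krt6a and Krt6b, the Cyp3a family) are uncertain, since shared reads could be split between them.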

Additional observations from a re-analysis of the deposited data

Results flagged for a closer look

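Of 92 groups of 4 libraries compared by the summed level of a gene list, 5 held a library far from the other 3, where chance gives about 1 in 20. In 4 of them the library was GFP- duct replicate 2. It had the lowest sum of hormone-sensing markers in the hormone-sensing gates (7860 CPM, against 11156, 11227 and 11531 CPM in the others) and the highest sums of basal markers (3477 CPM, against 31.9 to 42.3 CPM), of keratinocyte markers (2458 CPM, against 29.9 to 45.6 CPM) and of netrins, slits, semaphorins and ephrins (1439 CPM, against 1073 to 1106 CPM). GFP- duct replicate 1 had the lowest sum of homeobox and T-box factors (573 CPM, against 675 to 693 CPM).

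The difference between the gates differed between the models, by edgeR's quasi-likelihood test of the difference, for the 5 genes named per direction. On the log2 scale, Elf5 model minus PRcr model, the values were 6.29 for Mvb12b (adjusted p 0.0419), 5.03 for Gsta4 (adjusted p 0.00533), 4.58 for Atp2c2 (adjusted p 0.0157), 4.46 for Lrrc36 (adjusted p 0.0157) and 4.40 for Plekho2 (adjusted p 0.0126). They were -6.32 for Fst (adjusted p 0.0254), -6.25 for Acpp (adjusted p 0.0376), -5.33 for Gucy1a2 (adjusted p 0.0128), -4.14 for Epb41l3 (adjusted p 0.0458) and -3.47 for Celsr1 (adjusted p 0.0274). Each of the 10 lost its call without at least 2 of the 8 libraries. For Mvb12b these were GFP+ replicate 1 (6.27), GFP+ replicate 2 (6.33), YFP- replicate 1 (5.50), YFP+ replicate 1 (6.31) and YFP+ replicate 2 (6.28), and for Plekho2 YFP- replicate 2 (4.05), YFP+ replicate 1 (4.40) and YFP+ replicate 2 (4.41).

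Between ducts and TEBs the difference was called, ducts minus TEBs, at 4.19 for Itgb3, 3.64 for Ramp1, 3.16 for Stc1, 3.03 for Hcar2 and 3.0 for C3. It was -4.32 for Ptprz1, -3.78 for Peg3, -3.54 for Satb1, -3.40 for Mcc and -2.85 for Gga2. Among the genes named for other reasons it was called at -2.78 for Sprr1a, -2.0 for Krt6b, -1.99 for Krt6a and -0.68 for mt-Cytb, the last with an adjusted p of 0.0397.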

How the results depend on the processing

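Of the 298 single-gene results, each recomputed under the alternatives (4483 values), 4137 kept direction and side of the threshold, 277 lost their call and 39 gained one. In 12 genes 28 values crossed 0 without a call on either side, among them Krt14 (1.09) and Trp63 (0.08) with the replicate block, and 2 values changed sign with a call on one side: with a library left out, Trp63 ranged from -4.50 to 1.5 and Krt10 from -5.09 to 1.30, both at the upper end without GFP- duct replicate 2. The blocked comparison gave 6402 calls with DESeq2's size factors, 6044 with no filter, 6103 with a filter at 1 CPM, 7192 with DESeq2, 8666 with all 24 libraries, 5608 without the block by model and 4901 to 7167 with a library left out; agreeing genes numbered 1961 to 4239 with a library left out. With a library left out, calls within a model ranged from 2502 to 5424 (Elf5) and from 2622 to 6789 (PRcr), and called members of the lists, 367 of 711, from 307 to 415; with all 24 libraries these counts were 6461, 7078 and 468, and agreeing genes numbered 4448. Differences between models, 179 as reported, numbered 916 with DESeq2, 1053 with all 24 libraries and 2 to 1643 with a library left out; 69.8% were higher in the Elf5 model, against 59.7% with all 24 libraries and 50.9% without GFP- duct replicate 1. Differences between tissues, 885, numbered 1684 with DESeq2 and 461 to 1140 with a library left out; 66.2% were higher in ducts, against 842 of the 1684 with DESeq2. The causes were not tested.

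Replicate numbers were not taken as pairs: the labels tie no number to an animal or day, and over all genes the deviations of same-numbered libraries correlated at 0.074 in the Elf5 model and 0.063 in the PRcr model. Cell cycle sums did move together by number within each model; whether they share a preparation is not stated. With the replicate block 5830 genes were called in the blocked comparison, 5598 of them shared with the 6409, 634 differed between tissues, and 363 list members were called; the block ended the calls between tissues of Ptprz1 (-4.27), Satb1 (-3.16) and Mcc (-3.19). Each group of 2 libraries limits what single comparisons can show, and genes near the floor of 3 counts (Lpo, Fgf2, Npy, Il18, Snap25) have folds that depend on how zeros are handled.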
